A study of Mus musculus with 6 samples.

Results

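The Slc25 family comprises the mitochondrial carriers, the proteins that move metabolites, nucleotides, cofactors and ions across the inner membrane of mitochondria. Members were the genes whose single annotated symbol was Slc25a followed by a number, with 1 such gene not analysed here. This gave 43 genes, read by 92 probe sets, of 18193 genes on the array. Where a gene had several probe sets, the one with the highest mean signal stood for it. The rule used names only and no measured difference.

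Common myeloid progenitors (CMP), which give rise to granulocyte-monocyte and to megakaryocyte-erythrocyte progenitors, were taken from the marrow of femurs, tibiae and ilia of C57BL6 mice. They were sorted by their content of reactive oxygen species (ROS), read from H2-DCFDA, a stain that becomes fluorescent on oxidation, into low-ROS CMP and high-ROS CMP, each fraction holding 15% to 20% of CMP. Both groups share strain, tissue and gate, the labels name no mutation and no agent besides the stain, the ages of the mice are not given in the sources used here, and the series asks what ROS do in the step from CMP to megakaryocyte-erythrocyte progenitors. Each group had 3 one-colour arrays of total RNA, and the labels do not say whether these came from separate mice or separate sorts, so the p-values measure only the spread between these arrays, which may be technical.

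A mitochondrial carrier spans the inner membrane with a repeated fold and usually exchanges a solute of the matrix for another of the cytosol. Without this exchange the matrix enzymes would receive no ADP, phosphate, fuel acids or cofactors. In blood-forming cells the family also feeds heme synthesis, which starts from glycine inside the matrix and ends there with the insertion of iron. Another carrier brings glutathione, the main small antioxidant thiol, into the matrix.

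No carrier passed the test between the fractions. The fractions were compared by limma on log2(signal + 16), and a gene was called at a p under 0.05 after Benjamini-Hochberg adjustment across the 18193 genes. Of the 43 members, 0 passed, and 0.055% of all genes did. The smallest adjusted p among the members was 0.587 (limma), for Slc25a13. At an unadjusted p under 0.05 there were 5 members with a higher mean in high-ROS CMP and 0 with a lower mean, which is 11.6% of the members in either direction against 7.81% of all genes (4.44% higher and 3.37% lower). These 5 were Slc25a13, Slc25a5, Slc25a39, Slc25a4 and Slc25a22. Groups that did not overlap were found for 7 members, 6 with high-ROS above and 1 with low-ROS above, which is 16.3% against 13.4% of all genes. In the upward direction the share was 14% of members and 8.04% of genes, and in the downward direction 2.33% and 5.32%.

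The sizes were small. The mean was higher in high-ROS CMP for 24 members and lower for 19, or 55.8% higher against 54% of all genes, of which 46% had a lower mean. The median log2 fold change was 0.04, against 0.02 over all genes, and single members ranged from -0.51 for Slc25a23 to 0.67 for Slc25a13. A mean signal below 82.7, which is 2 times the median signal of the arrays, was read as near background, and 17 members lay there. For each of the other 26 members the 95% confidence interval of the log2 fold change stayed within a 2-fold change in either direction. The outermost limits among these 26 were -0.86, for Slc25a38, and 0.87, for Slc25a36. Intervals that reached a 2-fold change belonged to Slc25a13, Slc25a22 and Slc25a23, and these 3 had mean signals of 50.8, 38.95 and 39.4, near background. At such signals the pseudocount also shrinks a fold change.

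**Figure D1:**
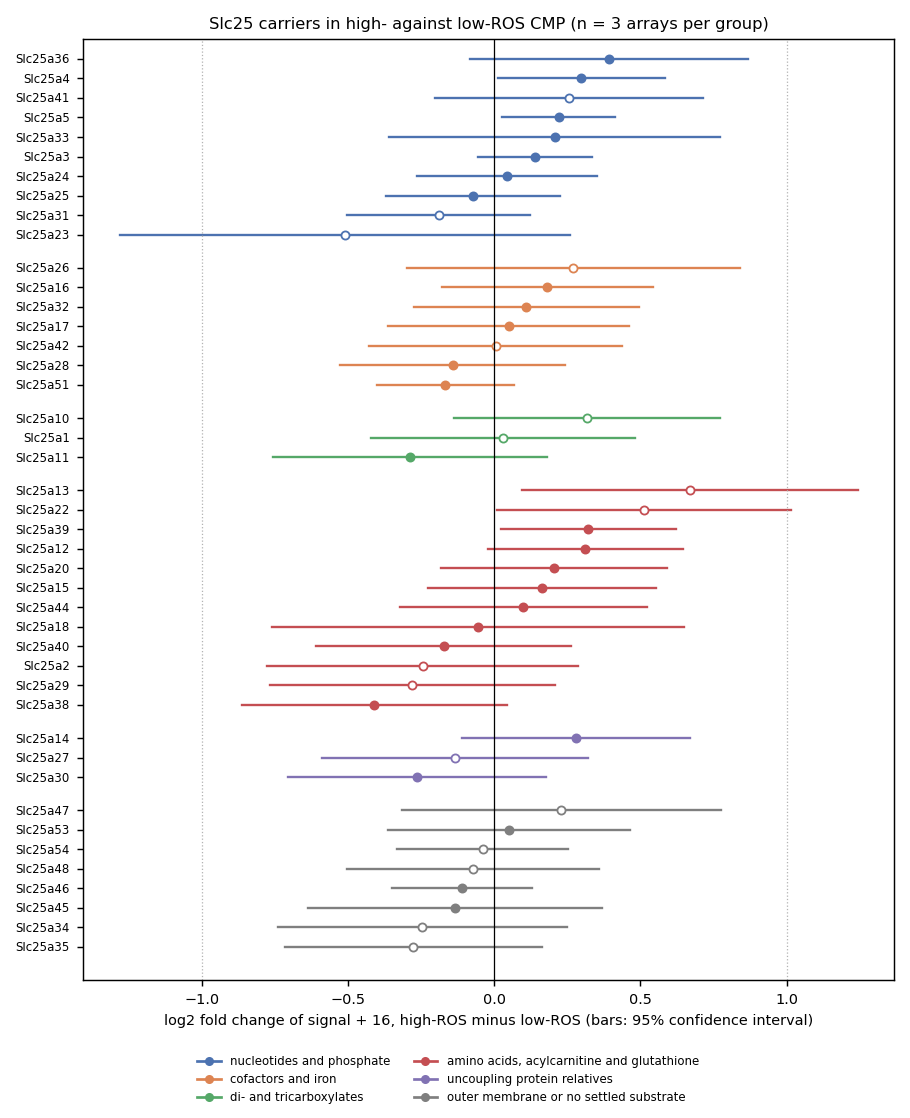
Log2 fold change of signal + 16, high-ROS minus low-ROS CMP, for the 43 Slc25 carriers grouped by what they carry, with 95% confidence intervals from limma (3 arrays per group); open points have a mean signal below 82.7 and dotted lines mark a 2-fold change. The points run from -0.51 to 0.67, most intervals cross 0, and none of the 43 passed after adjustment.

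**Figure D2:**
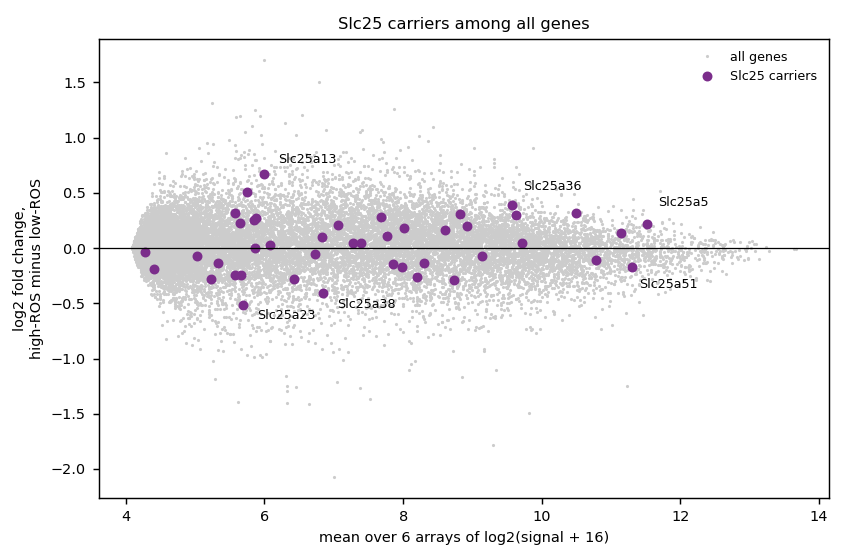
Log2 fold change (high-ROS minus low-ROS) against the mean over the 6 arrays of log2(signal + 16), for all 18193 genes in grey and the 43 Slc25 carriers in purple. The carriers lie inside the cloud of all genes at every signal level, between -0.51 and 0.67.

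Carriers of adenine nucleotides and phosphate supply ATP synthase with its substrates and export its product. Of 10 members that carry nucleotides or phosphate, 7 had a higher and 3 a lower mean in high-ROS CMP, 0 passed, and the median log2 fold change was 0.17. Slc25a5, the ADP/ATP carrier of growing tissues, had signals of 2545, 2707 and 2849 in low-ROS replicates 1 to 3 and of 3208, 2942 and 3296 in high-ROS replicates 1 to 3. All 3 high-ROS arrays were above all 3 low-ROS arrays. The means were 2700.4 ± 152 (SD, n = 3) and 3149 ± 185 (SD, n = 3), a log2 fold change of 0.22 (SE 0.0877, limma adjusted p = 0.598).

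Slc25a4, the ADP/ATP carrier best known from heart and skeletal muscle, had signals of 741, 741 and 610.2 in low-ROS and of 937, 782 and 861 in high-ROS replicates 1 to 3. Here too the groups did not overlap, with low-ROS replicate 3 the lowest array. The means were 698 ± 75.6 and 860.2 ± 77.7 (SD, n = 3 each), a log2 fold change of 0.30 (SE 0.130, limma adjusted p = 0.628). Slc25a3, the phosphate carrier, which also brings copper to the matrix, had 2112, 2234 and 2104 in low-ROS and 2343, 2506 and 2259 in high-ROS replicates 1 to 3. The lowest high-ROS array lay just above the highest low-ROS array, and the log2 fold change was 0.14 (SE 0.0885, limma adjusted p = 0.729). Slc25a31, the ADP/ATP carrier of the male germ line, was near background at 6.76 and 3.88.

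Slc25a36, a carrier of pyrimidine nucleotides, had 599, 666 and 680.3 in low-ROS and 704, 675 and 1312 in high-ROS replicates 1 to 3. The last of these arrays stood far above the other 5, and the groups overlapped. The log2 fold change was 0.39 (SE 0.216, limma adjusted p = 0.689), and without high-ROS replicate 3 it was 0.09. Slc25a33, which carries pyrimidine nucleotides too, also had its highest signal on that array, 193 against 91.6 to 130.1 on the other 5. The calcium-regulated carriers of ATP-Mg and phosphate gave log2 fold changes of 0.04 for Slc25a24, -0.07 for Slc25a25, 0.26 for Slc25a41 and -0.51 for Slc25a23, the last pair from signals near background.

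The probe sets of Slc25a5 and Slc25a4 pointed the same way, while the single one of Slc25a31, near background, had a log2 fold change of -0.19. All 8 probe sets of Slc25a5 gave a higher mean in high-ROS CMP, with log2 fold changes from 0.08 to 0.39, and all 3 probe sets of Slc25a4 above 82.7 did so as well, from 0.26 to 0.39. Of the Slc25a4 probe sets, the one with the largest value had 639.7 ± 41.1 and 846 ± 75.7 (SD, n = 3 each) and an adjusted p of 0.640 (limma) when each probe set was tested alone. Probe sets of a gene share the same arrays and RNA and are no replicates. Several of those for Slc25a5 carry the suffix x, which marks probes that may also bind other transcripts, and Slc25a4 and Slc25a5 are close copies of each other, so their signals may not be independent.

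Such agreement was not general. Of 12 members with more than 1 probe set above 82.7, all probe sets had the same sign for 5 (Slc25a4, Slc25a5, Slc25a25, Slc25a39 and Slc25a44) and opposite signs for 7. Slc25a3 had 0.14 on its bright probe set and -0.24 on a dim one of 93.5 and 76.7. Slc25a24 had 0.04 on the chosen probe set and -0.38 on its other one, where the signal was 243 ± 12.2 on the low-ROS and 183 ± 3.20 on the high-ROS arrays (SD, n = 3 each; limma adjusted p = 0.655). Slc25a36 had 0.39, -0.26 and 0.12 on its 3 probe sets. When a gene's probe sets were averaged, the median over the 43 members was -0.03, with 20 higher and 23 lower. The smallest p of any member probe set was that of a second one for Slc25a53, named here after its values were seen, with 20.2 ± 6.55 and 45.6 ± 6.09 (SD, n = 3 each) and a log2 fold change of 0.78 (limma adjusted p = 0.550), all near background.

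**Figure D3:**
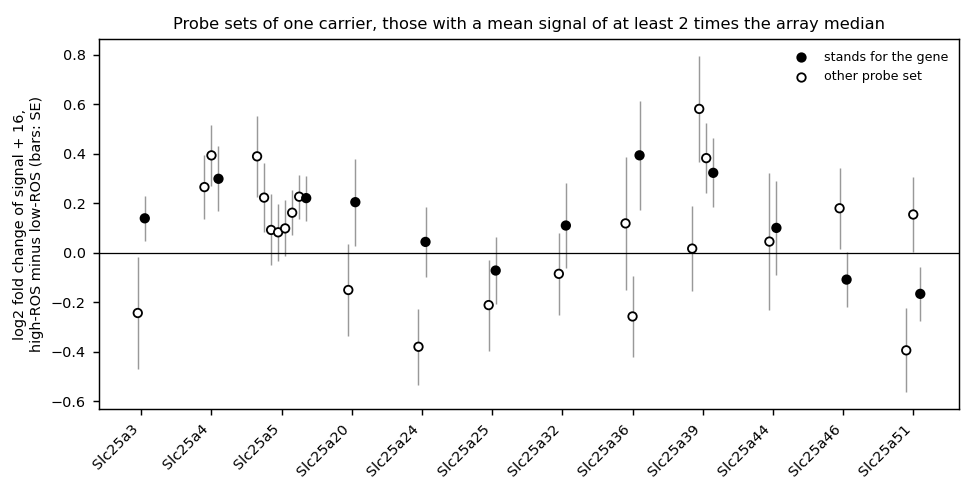
Log2 fold change (high-ROS minus low-ROS, bars are SE) of each probe set with a mean signal of at least 82.7, for the 12 carriers that have more than 1 such probe set, ordered within a carrier from dim to bright; filled points stand for the gene. All 8 points of Slc25a5 and all 3 of Slc25a4 lie above 0, and 7 carriers have points on both sides of 0.

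Carriers of amino acids, acylcarnitine and glutathione held the highest log2 fold change of the 43 members, that of Slc25a13, and the lowest among the 26 members above background, that of Slc25a38. Of 12 members, 7 had a higher and 5 a lower mean in high-ROS CMP, 0 passed, and the median log2 fold change was 0.13. Slc25a13 and Slc25a12 are the calcium-regulated aspartate-glutamate carriers of the malate-aspartate shuttle, which brings the reducing power of cytosolic NADH into mitochondria. Slc25a13 had 24.7, 33.2 and 48.7 in low-ROS and 44.1, 71.6 and 82.7 in high-ROS replicates 1 to 3. High-ROS replicate 1 lay below low-ROS replicate 3, and all signals were near or only just at the mark for background. The log2 fold change was 0.67 (SE 0.261, 95% confidence interval 0.09 to 1.24, limma adjusted p = 0.587).

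Slc25a12 had 369, 418 and 388 in low-ROS and 436, 459 and 586 in high-ROS replicates 1 to 3. The groups did not overlap, and high-ROS replicate 3 was the highest array. The means were 392 ± 24.6 and 494 ± 80.9 (SD, n = 3 each), a log2 fold change of 0.31 (SE 0.152, limma adjusted p = 0.646), and 0.19 without that array. Slc25a22, a glutamate carrier, had 19.6, 34.1 and 34.6 in low-ROS and 60.4, 44.9 and 40.2 in high-ROS replicates 1 to 3. Its groups did not overlap, but every signal was near background (log2 fold change 0.51, SE 0.229, limma adjusted p = 0.637). Slc25a18, the other glutamate carrier, had a log2 fold change of -0.06, with 167 on high-ROS replicate 2 and 62.2 to 109.9 on the other 5 arrays.

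Slc25a39, which is needed to bring glutathione into mitochondria, had 1323, 1475 and 1055 in low-ROS and 1657, 1412 and 1733 in high-ROS replicates 1 to 3. High-ROS replicate 2 lay below low-ROS replicate 2, so the groups overlapped. The means were 1284 ± 212 and 1601 ± 168 (SD, n = 3 each), a log2 fold change of 0.32 (SE 0.137, limma adjusted p = 0.619), and 0.19 without low-ROS replicate 3. All 4 of its probe sets above 82.7 had positive log2 fold changes, from 0.02 to 0.58. The values of 0.32, 0.38 and 0.58 came from probe sets with the suffix x, whose probes may also bind other transcripts. The only one of the 4 without this suffix was nearly level. Its group means were 176 ± 6.53 and 180 ± 27.4 (SD, n = 3 each), a log2 fold change of 0.02 (limma adjusted p = 0.989, each probe set tested alone). Its close relative Slc25a40 had a log2 fold change of -0.17 (SE 0.199, limma adjusted p = 0.866).

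Slc25a38, the carrier linked to the import of glycine for heme, was the only member with all low-ROS arrays above all high-ROS arrays. It had 102, 124 and 122 in low-ROS and 91.02, 93.4 and 67.9 in high-ROS replicates 1 to 3. The means were 116 ± 12.2 and 84.1 ± 14.1 (SD, n = 3 each), a log2 fold change of -0.41 (SE 0.206, 95% confidence interval -0.86 to 0.04, limma adjusted p = 0.658). Of the markers of erythroid cells, the main makers of heme, all 9 measured had their lower mean in the high-ROS group. Over all genes 46% did. Of the 9, 0 passed (limma) and 2 had an unadjusted p under 0.05, against 3.37% of all genes in that direction. Their summed signal was 20627 to 20718 on the low-ROS and 17283 to 19068 on the high-ROS arrays. The largest falls were those of Slc4a1, with group means of 6109 and 4985, and Car2, with 4381 and 3798. Gata1, Epor and Car1 had log2 fold changes of -0.32, -0.34 and -0.23. Klf1, Alas2, Hemgn and Tfrc were nearly level, at -0.07 to -0.04. The part of these markers in the value of Slc25a38 was not tested. In such bulk samples fewer cells of a type and less RNA per cell cannot be told apart.

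Slc25a20, the carnitine-acylcarnitine carrier through which fatty acids enter the matrix for oxidation, had 507, 350.4 and 464 in low-ROS and 482, 438 and 605 in high-ROS replicates 1 to 3. The groups overlapped widely (log2 fold change 0.20, SE 0.175, limma adjusted p = 0.808), and its other probe set had -0.15. Leaving out low-ROS replicate 2 gave 0.05, leaving out high-ROS replicate 3 gave 0.08, and leaving out low-ROS replicate 1 gave 0.31. Among the carriers of ornithine and basic amino acids, Slc25a15 had a log2 fold change of 0.16, and Slc25a2 and Slc25a29, near background, had -0.25 and -0.28. Slc25a44, a carrier of branched-chain amino acids, had 0.10.

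Carriers of cofactors and iron showed no common direction. Of 7 members, 5 had a higher and 2 a lower mean in high-ROS CMP, 0 passed, and the median log2 fold change was 0.05. Slc25a51, which brings NAD into mitochondria, had 2808, 2538 and 2613 in low-ROS and 2508, 2572 and 2036 in high-ROS replicates 1 to 3. The groups overlapped, and high-ROS replicate 3 was the lowest array (log2 fold change -0.17, SE 0.106, limma adjusted p = 0.729), and without it the value was -0.06. Its other probe sets had log2 fold changes of 0.15 and -0.39.

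Slc25a28, mitoferrin-2, an iron importer of the inner membrane, had 233, 222 and 225 in low-ROS and 209.6, 238 and 169 in high-ROS replicates 1 to 3. The low-ROS arrays were close together and the high-ROS arrays lay on both sides of them (log2 fold change -0.14, SE 0.175, limma adjusted p = 0.882). The value was -0.019 without high-ROS replicate 3 and -0.25 without high-ROS replicate 2. The other members of this group were Slc25a16 (0.18), Slc25a17, a carrier of peroxisomes (0.05), Slc25a26, which carries the methyl donor S-adenosylmethionine (0.27, near background), Slc25a32, linked to folate and FAD (0.11), and Slc25a42, a coenzyme A carrier (0.0047, near background), each as a log2 fold change.

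The carriers of di- and tricarboxylates link the citric acid cycle with the cytosol. Of 3 members, 2 had a higher and 1 a lower mean, and 0 passed. Slc25a1, the citrate carrier, which supplies the cytosol with carbon for fatty acid synthesis, had 44.96, 59.6 and 49.3 in low-ROS and 55.1, 47.96 and 54.3 in high-ROS replicates 1 to 3, all near background and overlapping (log2 fold change 0.03, SE 0.205, limma adjusted p = 0.986). Slc25a10, the dicarboxylate carrier, had 28.1, 26.9 and 25.4 in low-ROS and 36.6, 28.6 and 48.4 in high-ROS replicates 1 to 3, near background without overlap (0.32, SE 0.207, limma adjusted p = 0.736), and the value was 0.18 without high-ROS replicate 3. Slc25a11, the oxoglutarate-malate carrier of the malate-aspartate shuttle, had 654, 379.6 and 383 in low-ROS and 336, 444 and 342 in high-ROS replicates 1 to 3. Low-ROS replicate 1 alone stood above the rest. Its log2 fold change was -0.29 (SE 0.213, limma adjusted p = 0.762) and without that array -0.04.

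The relatives of the uncoupling proteins and the members of the outer membrane or with no settled substrate gave no call either. Of the 3 uncoupling protein relatives, Slc25a14 had 164, 197 and 152 in low-ROS and 209.9, 189.9 and 232 in high-ROS replicates 1 to 3. High-ROS replicate 2 lay below low-ROS replicate 2, and the log2 fold change was 0.28 (SE 0.177, limma adjusted p = 0.727). Slc25a30 had -0.26 and Slc25a27, near background, -0.13. Slc25a46, which sits in the outer membrane and acts in mitochondrial dynamics, had 2067, 1636 and 1746 in low-ROS and 1755, 1648 and 1624 in high-ROS replicates 1 to 3, with groups that overlapped (-0.11, SE 0.109, limma adjusted p = 0.839). The value was -0.013 without low-ROS replicate 1 and -0.18 without low-ROS replicate 2. Of the 8 members in its group 2 had a higher and 6 a lower mean, with log2 fold changes between -0.28 and 0.23, and 5 of them, Slc25a34, Slc25a35, Slc25a47, Slc25a48 and Slc25a54, were near background.

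**Figure D4:**
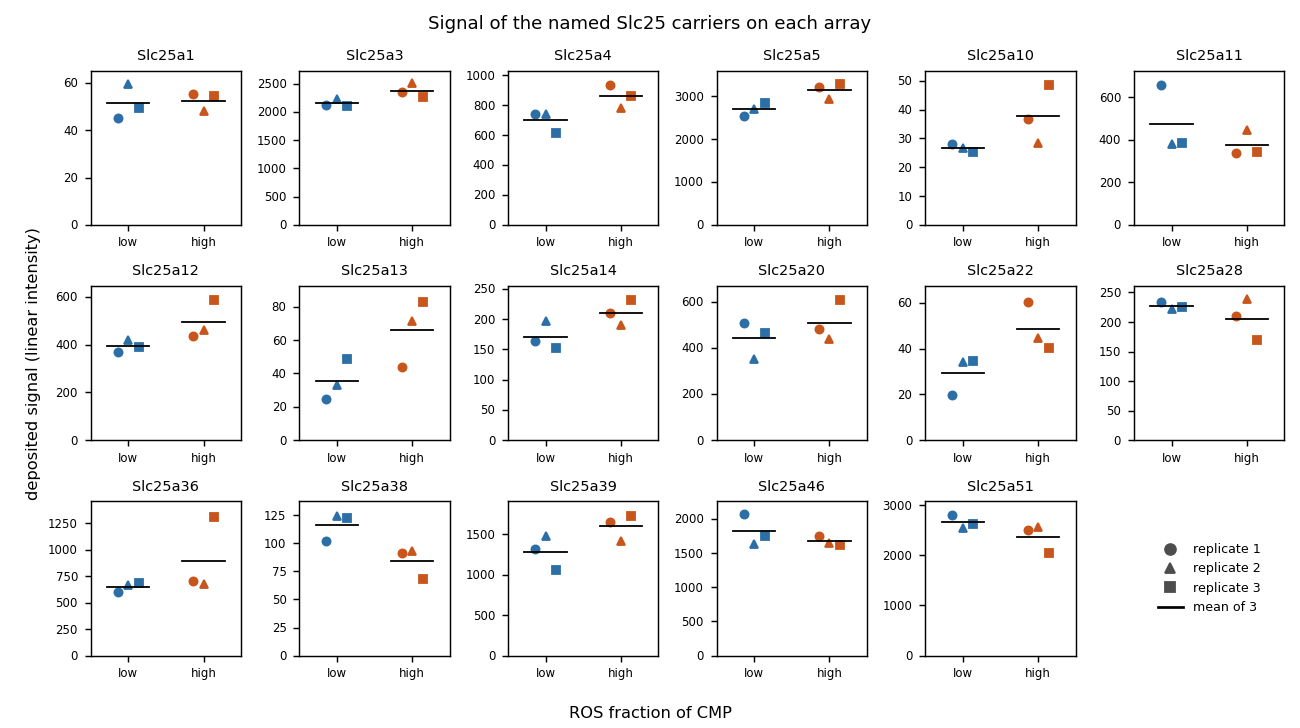
Deposited signal (linear intensity, axes from 0) of 17 Slc25 carriers on each of the 3 low-ROS arrays (blue) and 3 high-ROS arrays (orange), with symbols for replicate numbers and lines for group means. Slc25a5, Slc25a4, Slc25a3, Slc25a12, Slc25a22 and Slc25a10 have all high-ROS above all low-ROS arrays, Slc25a38 has the reverse, and Slc25a36 has its value of 1312 on high-ROS replicate 3 alone.

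The arrays contributed unequally. High-ROS replicate 3 held the highest signal of 12 members and the lowest of 9, and low-ROS replicate 3 held the highest of 1 and the lowest of 11. The summed signal of the 43 members was 17381 to 18472 on the low-ROS and 18682 to 19454 on the high-ROS arrays, a sum carried by the bright members, while the mean of log2(signal + 16) over the members overlapped, at 7.40 to 7.47 and 7.47 to 7.48. The 3' to 5' ratio of the Gapdh control probe sets, a measure of RNA integrity and labelling, was 2.54 to 3.19 on the low-ROS and 2.997 to 4.53 on the high-ROS arrays, with the highest value on high-ROS replicate 3. With the log2 of this ratio as a covariate the median of the members was -0.0036, and an unadjusted p under 0.05 was reached by 1 member with a higher mean and 1 with a lower one. In that fit the log2 fold change was 0.19 for Slc25a5, 0.18 for Slc25a4, 0.11 for Slc25a39 and -0.17 for Slc25a38, each nearer to 0 than without the covariate. Slc25a13 at 0.73 and Slc25a22 at 0.71, near background, were farther from 0. So were Slc25a3 at 0.20, Slc25a11 at -0.32 and Slc25a46 at -0.16, which lie above background. In that fit 0 members passed the threshold.

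Markers of the cell types were measured on the same arrays. The gate's genes Kit, Cd34, Fcgr3, Fcgr2b and Mpo had mean signals of at least 417 in both groups, and with Flt3, at 156 and 249.8, they summed to 10210 to 10593 on the low-ROS and 10105 to 11451 on the high-ROS arrays. Markers of mature neutrophils were also bright in both, with a summed signal over 6 genes of 48744 to 53219 on the low-ROS and 49040 to 50891 on the high-ROS arrays. Of these means 6 of 6 were lower in high-ROS CMP, with log2 fold changes from -0.16 to -0.0054, and 0 passed. The summed signal of 7 granulocyte and monocyte markers was 10562 to 10982 and 12835 to 13638, with 7 of 7 means higher and 0 past the threshold. Their log2 fold changes ran from 0.09 for Ms4a3 to 0.81 for Ly86. Over all genes 54% had a higher and 46% a lower mean. The 8 stem and multipotent progenitor markers had 1898 to 2066 and 891 to 1139, with 7 of 8 means lower and 1 gene, Angpt1, past the threshold. The 7 genes listed as megakaryocyte markers had 2372 to 2559 and 1013 to 1462, with 4 of 7 means lower and 1 gene, F2r, past the threshold. Most of this sum came from F2r, with group means of 1156 and 335, and Pf4, with 1107 and 666. Itga2b and Gp9 were also lower, but Gp1bb, Ppbp and Tubb1 were higher. The lower sum therefore reflects mainly F2r and Pf4 and not the list as a whole. The marker lists were chosen with earlier results of these data known. Angpt1 and F2r past the threshold are therefore no independent sign of a change in cell types. Lymphocyte markers, 6 genes, had 2122 to 2529.8 and 2101 to 2483, with 4 of 6 means higher. The 5 markers of stroma and vessels had 377 to 1236 and 608 to 939.7, with 5 of 5 means higher. In both lists 0 passed. No marker was listed at 0, but several were near background in both groups. These were Slamf1, Mecom, Procr and Fgd5 of the stem and multipotent progenitor list and Itga2b, Gp1bb, Gp9, Ppbp and Tubb1 of the megakaryocyte list. The vessel and stroma genes Cdh5 and Lepr were near background in both groups as well. What these cell types contribute to the signals of the carriers was not tested.

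Other genes of mitochondrial transport were counted in the same comparison. Over 3 lists, 33 of 38 genes were measured, 20 had a higher and 13 a lower mean in high-ROS CMP, 0 passed (limma), an unadjusted p under 0.05 was reached by 4 with a higher mean and 0 with a lower one, and the median log2 fold change was 0.07. Over all 18193 genes, 54% had a higher mean and the median was 0.02. An unadjusted p under 0.05 (limma) was reached by 4.44% of all genes with a higher mean and 3.37% with a lower one. Of 4 measured carriers of the same family under other names, 3 had a higher mean. Mtch2, an outer membrane insertase with the carrier fold, had 472, 367 and 301 in low-ROS and 514, 480.3 and 523 in high-ROS replicates 1 to 3, without overlap (log2 fold change 0.42, SE 0.168, limma adjusted p = 0.601). The uncoupling proteins Ucp1 and Ucp3 were near background, with Ucp1 at 6.85 and 9.43 and Ucp3 at 13.2 and 18.9 in the low- and the high-ROS group.

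Carrier proteins are made in the cytosol and inserted by the TOM complex of the outer membrane and the TIM22 complex of the inner membrane. Of the 12 import genes, 10 had a higher and 2 a lower mean in high-ROS CMP, 0 passed, and the median log2 fold change was 0.12. The mean was higher for 54% of all genes. Timm22, the pore of the TIM22 complex, had 234, 306 and 289 in low-ROS and 329, 333 and 481 in high-ROS replicates 1 to 3, without overlap (0.43, SE 0.186, limma adjusted p = 0.624). Tomm20, a receptor of the TOM complex, had means of 1344 ± 156 and 1659.5 ± 139.9 (SD, n = 3 each), also without overlap (0.30, SE 0.116, limma adjusted p = 0.587), and Timm13, a small chaperone of the space between the membranes, had 0.26 (SE 0.160, limma adjusted p = 0.722).

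Of the 17 measured genes of other transport across mitochondrial membranes, 7 had a higher and 10 a lower mean, and the median was -0.05. Tspo, an outer membrane protein that binds cholesterol and porphyrins, had 0.40 (SE 0.145, limma adjusted p = 0.587), with signals of 430.0, 394 and 447 in low-ROS and 538, 500.4 and 658 in high-ROS replicates 1 to 3. Micu2, a gatekeeper of the calcium uniporter, had -0.26 (SE 0.152, limma adjusted p = 0.704) and Abcb10, a transporter of the inner membrane that acts in erythroid cells, -0.15 (SE 0.103, limma adjusted p = 0.742).

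The sequence before the start of these genes was read from RefSeq promoter windows (GRCm38.p6), which were found for 34 of the 43 members. The 250 bases before the annotated start are printed for the ADP/ATP carriers Slc25a4 and Slc25a5, whose probe sets all had a higher mean in high-ROS CMP, and for Slc25a13, the member with the smallest p. They are in lower case, 5′ to 3′ on the strand of the gene, with capitals for each match to 7 motifs searched on both strands. These were CACGTG, the E-box, CCAAT, bound by the NF-Y factor, AGATAA, bound by factors such as Gata1, TGCGCA, the core of the NRF1 motif, CCGGAAG, an ETS motif, TATAAA, the box bound by TBP, and GGGCGGG, the GC box. No matches overlapped in these 3 windows. A single window is printed for each of these genes. The counts given below use every window of a member, and 6 members had several.
Slc25a4, chr8:46211063-46211312, minus strand: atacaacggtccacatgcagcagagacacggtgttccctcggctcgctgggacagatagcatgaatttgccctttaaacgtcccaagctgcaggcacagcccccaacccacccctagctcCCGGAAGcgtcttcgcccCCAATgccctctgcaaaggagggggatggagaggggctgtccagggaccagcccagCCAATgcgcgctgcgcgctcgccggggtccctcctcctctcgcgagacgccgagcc
Slc25a5, chrX:36795347-36795596, plus strand: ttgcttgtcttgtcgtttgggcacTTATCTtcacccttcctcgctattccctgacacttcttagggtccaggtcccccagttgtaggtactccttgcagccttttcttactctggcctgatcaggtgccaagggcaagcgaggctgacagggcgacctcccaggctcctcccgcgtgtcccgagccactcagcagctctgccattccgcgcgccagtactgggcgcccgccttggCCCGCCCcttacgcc
Slc25a13, chr6:6217174-6217423, minus strand: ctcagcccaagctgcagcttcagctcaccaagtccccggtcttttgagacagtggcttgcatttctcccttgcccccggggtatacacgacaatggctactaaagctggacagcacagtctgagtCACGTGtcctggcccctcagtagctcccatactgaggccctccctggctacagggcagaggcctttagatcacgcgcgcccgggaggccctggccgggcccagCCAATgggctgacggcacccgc

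The Slc25a4 window held CCAAT at 112 and 56 and CCGGAAG at 130 bases before the start. The Slc25a5 window held AGATAA at 226 and GGGCGGG at 15 bases, both on the opposite strand, and the Slc25a13 window held CACGTG at 125 and CCAAT at 22 bases. Slc25a4 and Slc25a5 therefore had no motif of the 7 in common in these windows. Over the 43 windows of the 34 members, CACGTG was found in 8, or 18.6%, against 6.02% of all 32851 windows of this length, CCAAT in 46.5% against 33.8%, GGGCGGG in 46.5% against 23.4% and CCGGAAG in 14% against 6.91%. AGATAA was found in 4.65% against 9.99%, TGCGCA in 6.98% against 6.43% and TATAAA in 2.33% against 12.4%. The windows of the members were richer in G and C, with a median of 58% against 52.4%. The members with CACGTG were Slc25a1, Slc25a13, Slc25a14, Slc25a15, Slc25a31, Slc25a33 and Slc25a36, of which 6 had a higher and 1 a lower mean in high-ROS CMP, against 20 and 14 of all 34. Among the 6 were Slc25a1, at 0.03, and Slc25a13, both near background, and Slc25a31, the lower one, was near background as well. Slc25a33 and Slc25a36 had their highest signals on high-ROS replicate 3, and without this array Slc25a36 was at 0.09. Higher and lower members were 10 and 7 for CCAAT, 10 and 8 for GGGCGGG and 4 and 2 for CCGGAAG. For TGCGCA they were 2 and 1, for AGATAA 2 and 0 and for TATAAA 0 and 1. A link between motif and direction was not tested. A match is a description of letters and shows no binding.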

How the data were processed

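The deposited table holds one linear intensity per probe set on each of 6 arrays. The sources used here do not state how the authors summarised probes or scaled arrays. Array medians were 40.4 to 42.5. Total RNA was amplified and labelled with biotin, per the labels' protocols. Probe sets were named from the platform's annotation: of 45101, 34945 had 1 symbol, 932 several and 9160 were unlisted. All 43 member symbols matched RefSeq (GRCm38.p6). The values carry no detection call.

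A pseudocount of 16 was added before log2. Groups were compared with limma 3.58.1 in R 4.3.3 (lmFit, eBayes with a mean-variance trend, 2-sided, 4 residual degrees of freedom), and Benjamini-Hochberg adjustment ran over all 18193 genes. With 3 arrays a group, an exact permutation test has a smallest p of 0.1. The number of arrays limits precision.

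Described by array were the 10 members with the smallest p, the 5 brightest, and 12 members fixed by role. Of each other mitochondrial list the 3 with the smallest p were named. Members, lists and alternatives were chosen with earlier results of these data known, and the promoter motifs after the values were seen. The steps were tested on simulated data with planted changes larger than those seen in the carriers. That test gives no recovery for changes of the carriers' sizes. Figures used Python 3.11.15 and matplotlib 3.10.9. Alternatives are in the closing section.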

Additional observations from a re-analysis of the deposited data

How the results depend on the processing

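Counts of carriers and of other mitochondrial transport genes past the threshold were 0 under every alternative run: quantile or trimmed-mean scaling, pseudocounts of 1 and 64, only genes above the median signal (27 members), no mean-variance trend, averaged probe sets, one test per probe set, the replicate number as a block, the Gapdh ratio as a covariate, each array left out and an adjusted p under 0.1. At an unadjusted p under 0.05 these limma fits gave 1 to 6 higher and 0 or 1 lower members, and 10 higher and 2 lower probe sets. Over all genes in each fit they gave 519 to 965 higher and 410 to 936 lower, and over 34945 probe sets 1299 higher and 1256 lower. Most of the 10 higher member probe sets belonged to Slc25a39, Slc25a5 and Slc25a4, so they are not separate results. The median over the members ranged from -0.028 to 0.074, and from -0.00092 to 0.062 with an array left out. Signs turned with averaged probe sets for Slc25a3 (-0.053) and Slc25a46 (0.035), and with the Gapdh covariate for Slc25a1 (-0.0036), Slc25a20 (-0.040), Slc25a28 (0.057) and Slc25a36 (-0.011). With arrays left out in turn, Slc25a1 ranged from -0.039, without low-ROS replicate 1, to 0.117. The causes were not tested.

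Over all genes, 10 passed in the main comparison, 4 with a pseudocount of 64, 17 above the median signal, 0 without the trend (limma, where 829 upward and 522 downward genes had an unadjusted p under 0.05), 3 with the Gapdh covariate, 1 to 6 without an array and 17 at an adjusted p under 0.1. Same-numbered arrays of the groups correlated at 0.119, 0.0966 and 0.00275 in their deviations, and differently numbered arrays at -0.126 to 0.061. These values do not settle whether equal numbers mark pairs, and the main fit used no pairs. The replicate block left 4 genes and 0 carriers past the threshold. Signals near background, as for 17 carriers, limit what could be seen.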
